A study of Mus musculus with 4 samples.

Results

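The 86 genes described here encode the proteins of the cytosolic ribosome and their close paralogs, and were taken from 23662 gene symbols in the deposited table. Members were symbols that begin with Rpl or Rps and a digit, with Rpsa, Rplp0, Rplp1 and Rplp2 added and S6 kinases and symbols of named pseudogenes left out. They comprised 43 large-subunit genes, 3 stalk genes, 31 small-subunit genes, 8 paralogs and Rps19bp1, a binding partner of Rps19 that carries a matching name without being a ribosomal protein. The RNA came from mouse embryonic stem (ES) cells of the TBV2 line: 3 clones with knockdown (KD) of the ultraconserved long noncoding RNA T-UCstem1, and 1 control library labelled N.T. (NT). All cells were grown in serum and LIF, and the series adds feeder cells and high density. The labels do not give the knockdown method, and the table gives 1 value per gene for the 3 clones together. Levels are FPKM, a fragment count divided by transcript length and by the sequenced total, so levels of different genes can be compared. Each condition has 1 FPKM per gene, so no SD or n accompanies a value, and the sequencing depth is unknown.

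The ribosome consists of a small subunit that reads the mRNA and a large subunit that forms the peptide bond and holds the exit tunnel. Nearly every ribosomal protein is present in a single copy per ribosome, and excess unassembled protein is degraded. The mRNAs of these proteins start with a terminal oligopyrimidine (TOP) tract, through which mTOR signalling and the RNA-binding protein LARP1 control their translation together. Some core genes have paralogs that are used in particular tissues, among them germ cells and striated muscle. Mouse genomes also carry many processed copies of these genes, so part of the reads of a ribosomal protein mRNA may match more than 1 place.

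How far reads of a paralog can be told from those of its core gene bears on the paralog results, so the first 120 bases of the coding sequences of Rpl10l, Rpl10, Rpl39l and Rpl39 are shown (GENCODE M21 on GRCm38, 5′ to 3′, capitals at bases that differ within each pair).
Rpl10l: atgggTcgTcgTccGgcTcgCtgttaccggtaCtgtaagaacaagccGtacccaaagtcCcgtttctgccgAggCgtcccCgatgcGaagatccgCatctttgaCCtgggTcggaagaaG
Rpl10: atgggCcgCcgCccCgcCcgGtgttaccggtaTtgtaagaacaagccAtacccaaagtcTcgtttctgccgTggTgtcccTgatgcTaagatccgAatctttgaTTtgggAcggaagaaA
Rpl39l: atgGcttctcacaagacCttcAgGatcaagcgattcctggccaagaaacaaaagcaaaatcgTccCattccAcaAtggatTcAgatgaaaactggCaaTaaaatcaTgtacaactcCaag
Rpl39: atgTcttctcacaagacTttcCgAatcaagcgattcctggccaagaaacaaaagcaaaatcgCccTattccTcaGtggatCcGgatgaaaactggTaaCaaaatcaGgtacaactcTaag
Rpl10l and Rpl10 differed at 18 of these 120 bases, and Rpl39l and Rpl39 at 14. Over the whole coding sequence of 642 bases, Rpl10l and Rpl10 were 84.7% identical, and their longest identical stretch was 23 bases. Rpl39l and Rpl39 were 84.97% identical over 153 bases, with a longest identical stretch of 38 bases. Rpl10l has 1 exon on chromosome 12, and Rpl10 has 7 exons on chromosome X in the transcripts compared.

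All 86 members were tested by the authors with Cuffdiff, and none was below 1 FPKM in both conditions. By the authors' mark of a significant change, Rpl10l rose in KD cells and Rpl37a fell, which made 2 of 86 called. Over all 15477 tested rows 1.15% were called, 0.963% higher and 0.187% lower. The other 84 members did not pass, and at a q below 0.1 in the authors' deposited table the count was again 2, against 1.71% of tested rows. At an unadjusted p below 0.05 in the authors' deposited table there were 4 members, Rpl10l, Rpl37a, Rps15 and Rpl39l, against a background of 8.88% of tested rows. The last 3 were lower in KD cells, against 2.78% of tested rows. A log2 fold of at least 1 in size was reached by Rpl10l and Rpl39l, against 3.57% of tested rows. In bulk RNA, fewer cells of a type and less RNA per cell cannot be told apart.

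**Figure D1:**
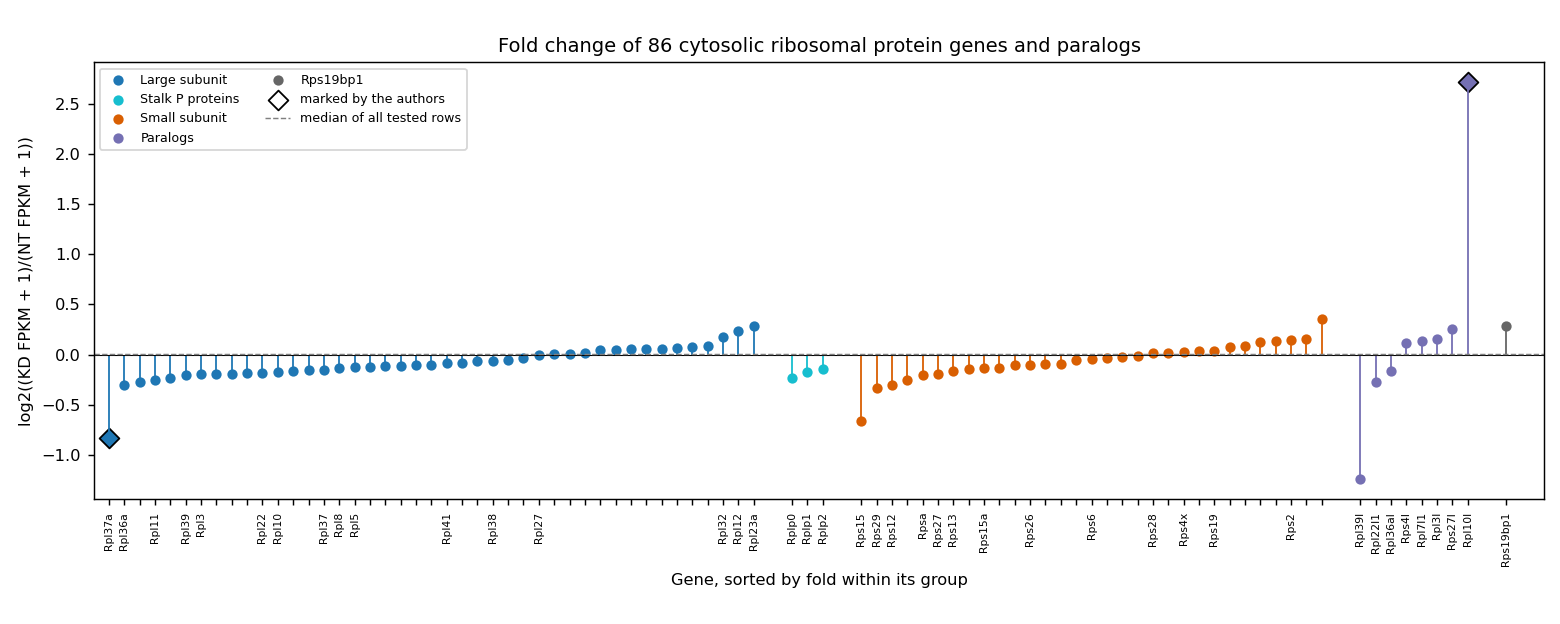
Log2 fold of KD over NT control for each of the 86 genes, sorted within groups of large subunit, stalk, small subunit, paralogs and Rps19bp1; genes described in the text are labelled, diamonds are genes marked by the authors and the dashed line is the median of all tested rows. Most points lie close to 0, with Rpl10l at 2.71 and Rpl37a, Rps15 and Rpl39l lowest.

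The members as a whole differed little between conditions. Their median log2((KD FPKM + 1)/(NT FPKM + 1)) was -0.082, with quartiles of -0.17 and 0.050. Over all tested rows the median was 0.0069, with quartiles of -0.20 and 0.22. Of the 86 members, 53 lay below 0 and 33 above, while 49.1% of all tested rows lay below 0. Folds were under 0.25 in size in 71 members (82.6%), against 56.7% of all tested rows. The narrow band was not particular to the members. It held 77.9% of the mitochondrial ribosomal protein genes and 80% of the proteasome subunit genes. The members were also far more abundant than the background, with a median of 1499 FPKM in NT cells against 7.19 FPKM for all tested rows. Since each condition has 1 value, the shift of the median has no replicate error and was not tested.

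Ribosomal protein mRNAs were among the most abundant in these cells. They took 41 of the 50 highest rows with a gene symbol in KD cells and 40 of 50 in NT cells. Their summed level was 24.4% of the summed FPKM of rows with a symbol in KD cells and 25.4% in NT cells. Counted over all usable rows, which include highly covered loci with no symbol, the shares were 19.2% in KD cells and 19.5% in NT cells. The 77 core genes had a median of 1529 FPKM in KD cells and 1662 FPKM in NT cells. Although their proteins are assembled in near equal number, their measured mRNA levels were not equal. The highest core gene was 22.7 times the lowest in KD cells and 23.2 times in NT cells. The lowest in both conditions was Rps15a, which has a pseudogene with a row of its own, Rps15a-ps6. The treatment of reads with several matches is unknown, and its part in this span was not tested. Levels of the core genes were closely correlated between the conditions, with a Pearson r of 0.977 between log2 levels across 77 genes, which are not independent replicates.

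**Figure D2:**
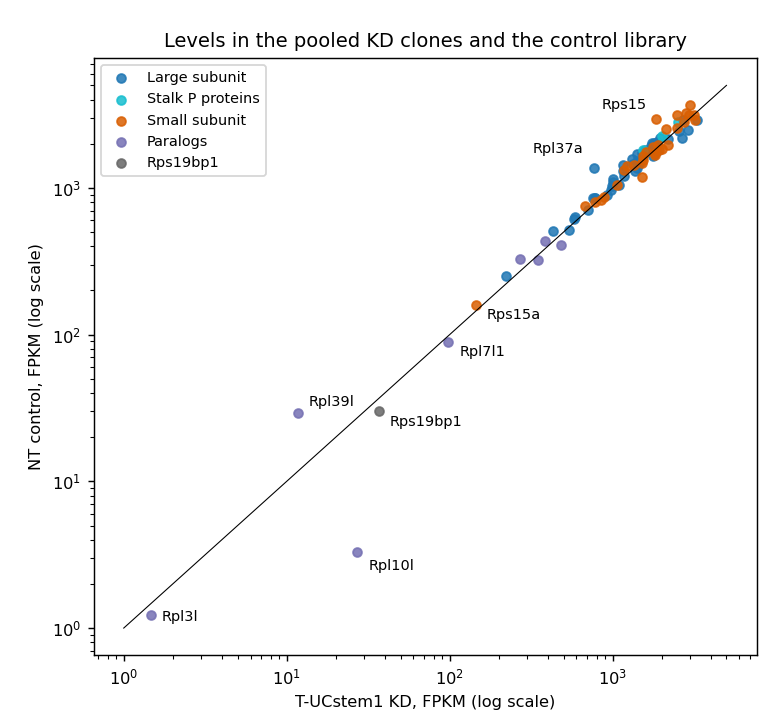
FPKM in KD cells (x axis, log scale) and in the NT control (y axis, log scale) of each gene, with the line of equality. Core genes lie along the line between 145 and 3700 FPKM, and Rpl10l and Rpl39l stand off it on opposite sides.

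The paralogs held both the largest rise and the lowest fold among the members. Rpl10l, a retrocopy of the X-linked Rpl10 that takes over for it in mouse spermatocytes while the X chromosome is silenced (chromosome 12, 67382886 to 67385572 in mm9, as the file gives it), had 27.2 FPKM in KD cells and 3.29 FPKM in NT cells. The log2 fold came to 2.71, and the authors' deposited table gave p = 5e-05 and q = 0.00815. That p is the smallest in the table and was shared by 95 tested rows. Rpl10 itself, which joins the large subunit in the last steps of its assembly, had 1794 FPKM in KD cells and 2021 FPKM in NT cells and was not called. Rpl10l therefore made up 1.49% of the summed level of the pair in KD cells and 0.163% in NT cells.

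Rpl39l, the testis paralog of the tunnel protein gene Rpl39, went the other way without passing the test. It had 11.8 FPKM in KD cells and 29.3 FPKM in NT cells, a log2 fold of -1.24, the lowest of the 86, and the authors' deposited table gave p = 0.0122 and q = 0.281. Rpl39 had 1509 FPKM in KD cells and 1740 FPKM in NT cells. The pair's share held by Rpl39l was 0.775% in KD cells and 1.65% in NT cells. Both germ-line paralogs were thus minor beside their X-linked core genes in either condition, and their own folds had opposite signs.

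A list of 20 germ-line and testis genes, which contains Rpl10l and Rpl39l, had 5 members called higher and 1 called lower of 19 tested. Over all tested rows 0.963% were called higher and 0.187% lower. Those called higher in the list were Rpl10l itself, the helicase gene Ddx4, the meiosis regulator Stra8, the synaptonemal complex gene Syce1 and the transcription factor subunit Taf7l. The tubulin gene Tuba3a was called lower. Of the list 14 genes lay above 0 and 5 below, the latter being Tuba3a, Rpl39l, Tex14, Tdrd9 and Sycp2. The list's summed level was 278 FPKM in KD cells and 204 FPKM in NT cells, and Pgk2 was listed at 0 in both. The median of the list was 0.64, against 0.0069 for all tested rows. Its part in the result for Rpl10l was not tested.

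The other paralogs were not called. Rps27l, a paralog of Rps27 and a target of p53, had 482.9 FPKM in KD cells and 405 FPKM in NT cells (log2 fold 0.25, q 0.999 in the authors' deposited table). Rps27, a zinc-binding protein of the small subunit, had 2824 FPKM in KD cells and 3224 FPKM in NT cells, so that Rps27l was 14.6% of the pair in KD cells and 11.2% in NT cells. Rpl22l1, the paralog that rises when Rpl22 is lost in mice, had 269.8 FPKM in KD cells and 325 FPKM in NT cells. Rpl22 had 223 FPKM in KD cells and 253 FPKM in NT cells, which made this the only one of the 8 pairs whose paralog was the more abundant, with 54.8% of the pair in KD cells and 56.3% in NT cells.

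Rpl36al had 386 FPKM in KD cells and 431 FPKM in NT cells, and its X-linked partner Rpl36a had 1152 FPKM in KD cells and 1425 FPKM in NT cells. Their coding sequences were 87.7% identical, the highest of the 7 pairs compared. Rps4l, a paralog of the X-linked Rps4x, had 350 FPKM in KD cells and 323 FPKM in NT cells, but its row spans 396937 bases of chromosome 6 and overlaps the rows of other genes, so the assignment of its reads is uncertain. Rpl7l1 was at 98.2 FPKM in KD cells and 89.4 FPKM in NT cells. Rpl3l, which replaces Rpl3 in heart and skeletal muscle, was the lowest member of all, with 1.47 FPKM in KD cells and 1.22 FPKM in NT cells. Paralog levels relative to their core genes thus spanned from well under 1% for Rpl3l to more than an equal share for Rpl22l1, in both conditions.

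**Figure D3:**
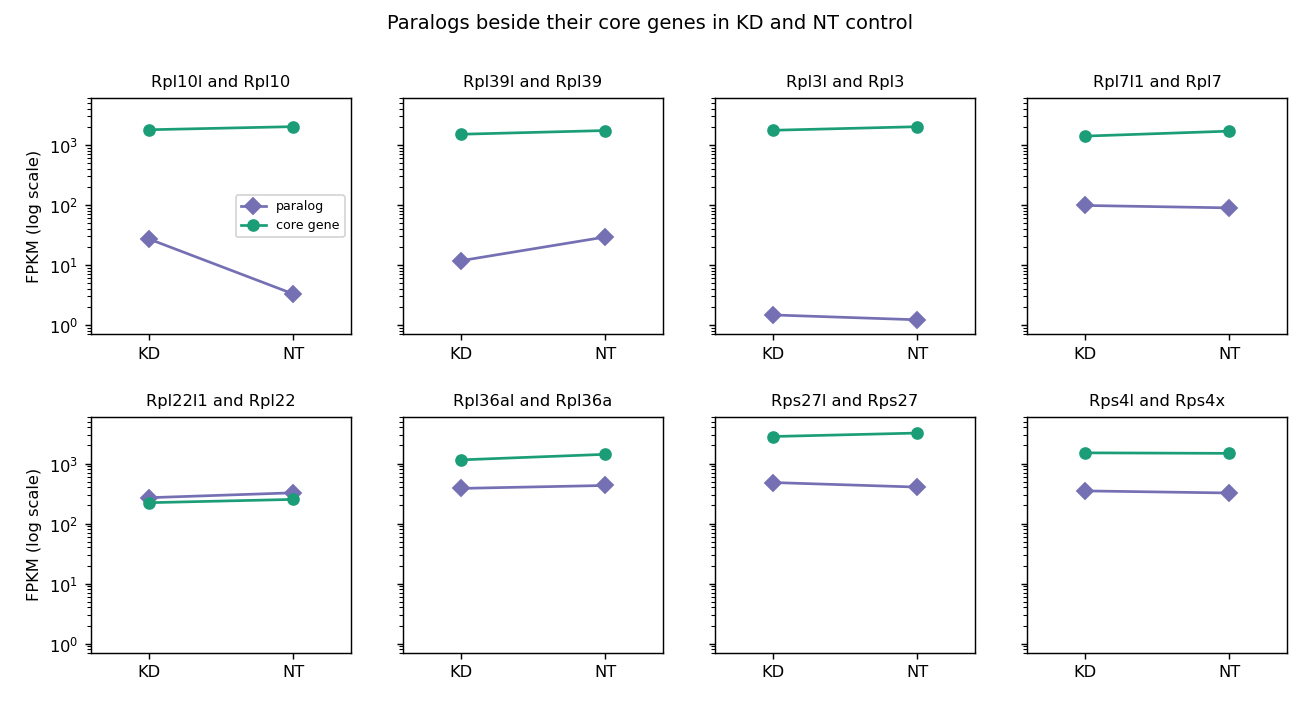
FPKM (log scale) of each paralog and of its core gene in KD cells and the NT control, 1 panel per pair and 1 value per condition. Rpl10l is higher in KD cells (27.2 FPKM, against 3.29 FPKM in the NT control), and Rpl39l is lower in KD cells. The core genes have log2 folds between -0.31 for Rpl36a and 0.028 for Rps4x.

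Among the 43 large-subunit genes 1 fell, none rose and 42 did not pass, against 0.187% of tested rows called lower and 0.963% higher. The median log2 fold of the 43 genes was -0.10. The one that fell was Rpl37a, a zinc-binding protein of the large subunit (chromosome 1, 72757505 to 72766454 in mm9, as the file gives it). Rpl37a had 771 FPKM in KD cells and 1369 FPKM in NT cells, or 56.3% of the control level. The log2 fold came to -0.83, and the authors' deposited table gave q = 0.0352. The next lowest large-subunit gene was Rpl36a, which contacts the tRNA exit site, at a log2 fold of -0.31 (q 0.902 in the authors' deposited table). Rpl37a was therefore well apart from the rest of its subunit. Its namesake Rpl37, a different zinc-binding protein, had 760 FPKM in KD cells and 848 FPKM in NT cells.

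The remaining large-subunit genes lay between -0.31 and 0.29. Rpl23a, at the mouth of the exit tunnel, was highest, with 2665 FPKM in KD cells and 2185 FPKM in NT cells (log2 fold 0.29, q 0.955 in the authors' deposited table). Rpl12, at the base of the stalk, followed with 2917 FPKM in KD cells and 2479 FPKM in NT cells. Rpl32 was the most abundant member in KD cells, at 3294 FPKM against 2921 FPKM in NT cells, in a row that also carries the symbol Efcab12. The rows of Rpl8 and Rps13 are likewise shared, with Commd5 and Pik3c2a. Rpl5 and Rpl11, which bind 5S rRNA and can hold the p53 ubiquitin ligase MDM2, were both slightly lower. Rpl5 had 779 FPKM in KD cells and 849.6 FPKM in NT cells. Rpl11 had 1323 FPKM in KD cells and 1575 FPKM in NT cells. None of these genes passed the test. Rpl38, which helps translate certain Hox mRNAs in the mouse, had 1761 FPKM in KD cells and 1836 FPKM in NT cells. Rpl27, which had 702 FPKM in both conditions, differed least of the 43.

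The stalk, which recruits the GTPase elongation factors, was lower at every component without a call. Rplp0, the stalk base protein, had 1535 FPKM in KD cells and 1806 FPKM in NT cells. Rplp1 had 1999 FPKM in KD cells and 2252 FPKM in NT cells. Rplp2 had 2528 FPKM in KD cells and 2798 FPKM in NT cells. The 3 log2 folds lay between -0.23 and -0.15.

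None of the 31 small-subunit genes was called by Cuffdiff in the authors' deposited table, and 1 had an unadjusted p below 0.05. Among all tested rows 1.15% were called and 8.88% had such a p. The median log2 fold of the 31 genes was -0.042, with 19 below 0 and 12 above, against 49.1% of all tested rows below 0. The gene with that p was Rps15, a head protein near the decoding site, which had 1850 FPKM in KD cells and 2934 FPKM in NT cells. For its log2 fold of -0.67 the authors' deposited table gave p = 0.00395 and q = 0.153. Rps29, a zinc-binding head protein, had 2487 FPKM in KD cells and 3138 FPKM in NT cells (log2 fold -0.34). Rps12 had 3003 FPKM in KD cells and 3700 FPKM in NT cells, the highest control level of all members. Rps15, Rps29 and Rps12 were thus the lowest folds of the small subunit, and all 3 are highly abundant mRNAs.

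Other small-subunit genes differed less or lay above 0. Rps2 had 3204 FPKM in KD cells and 2896 FPKM in NT cells. Rps28, also among the most abundant members, had a log2 fold of 0.012. Rps6, the substrate of S6 kinase, had 782 FPKM in KD cells and 806 FPKM in NT cells, and Rps19, often mutated in Diamond-Blackfan anaemia, had 849.7 FPKM in KD cells and 829.6 FPKM in NT cells. Rps15a was the least abundant core gene, at 145 FPKM in KD cells and 159 FPKM in NT cells. Rps19bp1 was at 36.7 FPKM in KD cells and 29.99 FPKM in NT cells and was not called.

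The folds were also read beside those of the other genes on their chromosomes. On chromosome 10 the other 759 tested rows had a median log2 fold of -0.19, and the 4 ribosomal protein genes there, Rps15, Rps12, Rps26 and Rpl41, had a median of -0.20. Rps15 at -0.67 was below that level. On chromosome 6 the other 703 tested rows had a median of 0.24, and Rps4l and Rpl32 were at 0.12 and 0.17. On chromosome X the other 516 tested rows had a median of 0.11, while Rpl36a, Rpl39 and Rpl10 lay between -0.31 and -0.17 and Rps4x was at 0.028. The other rows of chromosome 1, which carries Rpl37a, and of chromosome 12, which carries Rpl10l, had medians of -0.0061 and -0.028. With each fold taken relative to the other rows of its chromosome, 56 members lay below 0 and 30 above, with a median of -0.076.

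**Figure D4:**
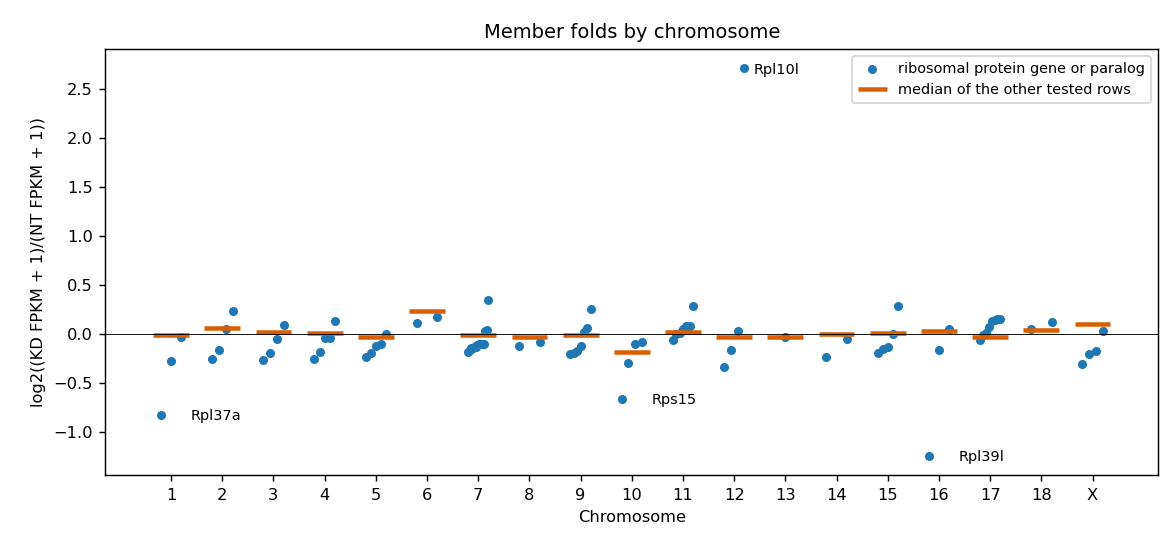
Log2 fold of each gene (points) by chromosome, with the median of the other tested rows of that chromosome (bars). The bar of chromosome 10 is at -0.19 and that of chromosome 6 at 0.24, and Rpl37a, Rps15, Rpl39l and Rpl10l lie far from the bars of their chromosomes.

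Fau and Gnb2l1, ribosomal proteins whose symbols fall outside the name pattern, were not called either. Fau, made as a fusion with a ubiquitin-like protein, had 811 FPKM in KD cells and 910.1 FPKM in NT cells. Gnb2l1, the scaffold of the small subunit that is now called Rack1, had 1386 FPKM in KD cells and 1502 FPKM in NT cells.

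Other TOP mRNAs of translation were also mostly below 0. None of 19 listed genes was called by Cuffdiff, 3 had an unadjusted p below 0.05, all lower, and the median was -0.11 with 13 below 0 and 6 above. Over all tested rows 1.15% were called, 2.78% were lower at that unadjusted p and 49.1% lay below 0. Eef2, the translocase of elongation, had 927 FPKM in KD cells and 1600 FPKM in NT cells (q 0.315 in the authors' deposited table), and lies on chromosome 10. Eef1b2, an exchange factor of elongation, had 496 FPKM in KD cells and 792 FPKM in NT cells (q 0.154 in the authors' deposited table). The third was Eif4a2, a helicase paralog, at 261 FPKM in KD cells and 372 FPKM in NT cells. Eef1a1, the most abundant of the list, had 6486 FPKM in KD cells and 6295 FPKM in NT cells, and Tpt1 had 2254 FPKM in KD cells and 2318 FPKM in NT cells. The highest folds of the list were those of Hnrnpa1, with 991 FPKM in KD cells and 759 FPKM in NT cells (log2 fold 0.38), and Npm1 (log2 fold 0.27).

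The 12 genes of TOP mRNA and growth control had no call and no unadjusted p below 0.05 in the authors' deposited Cuffdiff table, and their folds lay between -0.16 and 0.19. Larp1 had 52.0 FPKM in KD cells and 45.9 FPKM in NT cells, and Mtor had 15.3 FPKM in KD cells and 15.9 FPKM in NT cells. Eif4ebp1, a translation repressor that mTOR inactivates, was the most abundant, at 337 FPKM in KD cells and 295 FPKM in NT cells. Genes of other large complexes were placed beside them. The 77 mitochondrial ribosomal protein genes had a median of 0.077, with 58 above 0. The 50 proteasome subunit genes, of which 47 were tested, had a median of 0.10, with 39 above 0. Of all tested rows 50.9% lay above 0. Neither list had a call by Cuffdiff in the authors' deposited table, and in both 0 genes had an unadjusted p below 0.05. The difference between these medians and that of the cytosolic ribosomal proteins was not tested.

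**Figure D5:**
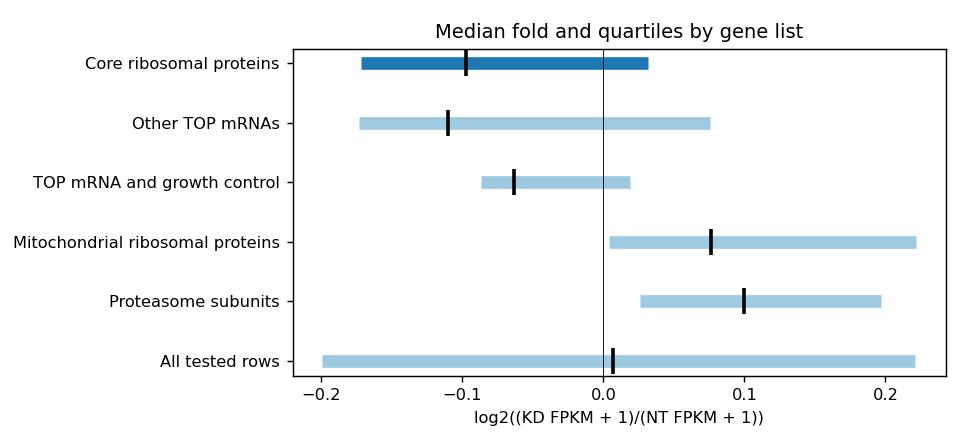
Median log2 fold (vertical tick) and quartiles (bar) of the core ribosomal protein genes, other TOP mRNAs, TOP mRNA and growth control genes, mitochondrial ribosomal protein genes, proteasome genes and all tested rows. The medians of the cytosolic ribosomal protein genes and other TOP mRNAs are -0.098 and -0.11, and those of the mitochondrial ribosome and proteasome are 0.077 and 0.10.

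Promoters were examined for letters that the members share. RefSeq windows of 300 bases, from 250 before to 50 after the annotated start on GRCm38.p6, were matched for 65 of the 86 members. The letters CGGAAG, the core bound by ETS factors, were present on either strand in 44 of 65 members (67.7%), against 18.8% of all 27025 symbols with a window. With 1 more base, CCGGAAG, which overlaps the first, it was in 40% of members and 9.93% of all symbols. AAGATGGC, the core of a YY1 motif, was found in 9.23% of members and 3.19% of all symbols, and TATAAA in 10.8% of members and 15.7% of all symbols, both on either strand. A run of at least 8 pyrimidines beginning with C, searched on the sense strand from 40 bases before to 30 after the start, was found in 37 of 65 members (56.9%) and 23.8% of all symbols. The background takes every symbol with a window, whether or not it is expressed in these cells. These matches describe the letters of the windows, and annotated starts may lie some bases from the true ones. A link between these letters and the folds was not tested.

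Windows from 50 bases before to 30 after the start are shown for Rpl10l and Rpl37a, the genes that were called, and for Rps15 and Rpl36a, the lowest fold of the small subunit and the lowest of the large subunit after Rpl37a (5′ to 3′ on the gene's strand, GRCm38.p6, RefSeq, CGGAAG or its complement CTTCCG in capitals).
Rpl10l, chr12:66284372-66284451, minus strand: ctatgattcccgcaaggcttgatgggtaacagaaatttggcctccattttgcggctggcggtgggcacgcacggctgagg
Rpl37a, chr1:72711210-72711289, plus strand: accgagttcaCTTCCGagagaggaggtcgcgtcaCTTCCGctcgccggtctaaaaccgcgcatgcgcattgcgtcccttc
Rps15, chr10:80292381-80292460, plus strand: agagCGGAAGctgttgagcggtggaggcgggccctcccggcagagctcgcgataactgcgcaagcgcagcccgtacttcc
Rpl36a, chrX:134585604-134585683, plus strand: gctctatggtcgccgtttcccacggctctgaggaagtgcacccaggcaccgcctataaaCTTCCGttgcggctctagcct
Rpl37a had 2 of these motifs, Rps15 and Rpl36a had 1 each, and Rpl10l had 0 in its whole window.

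Many ribosomal protein genes carry small nucleolar RNAs (snoRNAs), guides of rRNA modification, in their introns. The authors' table held 26 snoRNA rows that overlapped the loci of 21 members, and 21 of these rows were at 0 in both conditions. Snora64, in the Rps2 locus, had 482.7 FPKM in KD cells and 1223 FPKM in NT cells (q 0.668 in the authors' deposited table). Its host Rps2 differed in the other direction, at 3204 FPKM in KD cells and 2896 FPKM in NT cells. Snora65, in the Rpl12 locus, was listed at 0 in KD cells and at 162 FPKM in NT cells, and Snora70, in the Rpl10 locus, at 36.3 FPKM in KD cells and 0 in NT cells. None of these rows was called. Reads of these short RNAs cannot be told from those of the intron around them.

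Markers of other cell types moved between the conditions and are given for the whole comparison. As background, 0.963% of all tested rows were called higher and 0.187% lower. Of 20 primitive and visceral endoderm markers, 12 of 17 tested were called higher, with summed levels of 924 FPKM in KD cells and 233 FPKM in NT cells. Of that list 19 lay above 0 and 1, Hnf4a, below. Afp, Ttr and Apoa1 were not tested. Afp and Ttr were listed at 0 in NT cells and at 0.052 and 0.53 FPKM in KD cells. Apoa1 had 0.29 FPKM in KD cells and 0.075 FPKM in NT cells. Of 22 feeder fibroblast markers, 5 of 17 tested were called higher, with summed levels of 86.3 FPKM in KD cells and 28.6 FPKM in NT cells. Lum was listed at 0 in both, and Fap at 0 in NT cells and 0.019 FPKM in KD cells. Neither was tested. Pdgfra is in both lists. None of 10 ES cell markers was called by Cuffdiff, 7 lay above 0 and 3 below, and their summed levels were 5790 FPKM in KD cells and 5585 FPKM in NT cells. Dppa5a made up much of that sum, with 2721 FPKM in KD cells and 2552 FPKM in NT cells. Dnmt3l, on chromosome 10, was the marker with an unadjusted p below 0.05, at 168 FPKM in KD cells and 249.8 FPKM in NT cells (log2 fold -0.57, p 0.0267 and q 0.424 in the authors' deposited table). The part of these cells in the folds of the ribosomal protein genes was not tested. With 1 control library, a level particular to that library and an effect of the knockdown cannot be told apart.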

How the data were processed

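Total RNA of 4 libraries was sequenced, 3 KD clones and 1 control. TopHat, Cufflinks and Cuffdiff were used on mm9, per the submitters' processing notes. The sources used here give no options, annotation, library scaling or treatment of reads with several matches. Deposited values are 1 FPKM per gene for a condition named treated, taken as the KD, and 1 for control, per the file headers. Its p-value and q-value per gene are those of Cuffdiff, deposited by the authors, who marked 178 of 15477 tested rows, with a largest q of 0.0478. No test was added, because each condition has 1 value, and the deposited p contains no spread between control cultures.

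Folds were computed as log2((KD FPKM + 1)/(NT FPKM + 1)) with Python 3.11.15 and pandas 2.3.3, 1 row per symbol by highest mean. The pseudocount understates folds of low genes. The name rule was checked on chosen symbols, and the fold formula on simulated shifts set into the control values without noise. That check covers the arithmetic only. Named members were those called, all paralogs, the 5 highest and 5 lowest folds and the 5 most abundant. Other members were chosen for their known roles after values were seen. Some genes the rule names are not reported here. Members and lists were chosen with earlier results of these data known. Coding sequences were aligned with Biopython 1.88. The coding sequence of Rps4l was not used here.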

Additional observations from a re-analysis of the deposited data

How the results depend on the processing

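The median log2 fold of the members stayed between -0.10 and -0.032 under every alternative run, and was closest to 0 when FPKM were rescaled to a common sum, which shifts the log2 ratio of KD over NT by 0.050 before a pseudocount is added; the fold of Rpl10l, a low gene, was then 2.86. A rescaling over rows with a symbol and a median without Rpl10l, both chosen after seeing the data, gave -0.068 and -0.085. Members below 0 numbered 53, and between 48 and 59 under the alternatives that kept all 86. At an unadjusted p below 0.05 the members called numbered 4 in place of 2. A log2 fold of at least 1 in size was reached by 2 members, Rpl10l and Rpl39l, so that Rpl37a did not reach it, against a background of 3.57% of tested rows. For 20 named members, 95 of 100 recomputed folds moved by less than 0.1 and kept their sign, and 4 moved by more without a change of sign. The remaining 1 changed sign, Rps28 at -0.011 after centring on the median of named genes. Many of these checks could move a fold only a little. No member had more than 1 row, so summing rows left all 20 folds unchanged. Centring shifted every fold by 0.022, and rescaling shifts the log2 ratio by 0.050, both under 0.1. The fold of Rpl10l was 3.01 with a pseudocount of 0.1 FPKM and 1.96 with 5 FPKM. No paired analysis was possible because the table gives 1 pooled value for the KD clones and 1 control library, and for the same reason no clone could be left out. Depth is unknown, which limits low members such as Rpl3l most.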

Other observations

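Rows that the name rule leaves out were also measured. The 10 S6 kinase genes, which include the ribosomal S6 kinases downstream of mTOR and the RSK and MSK kinases downstream of ERK and p38, had no call, with log2 folds between -0.34 and 0.28. Rps6ka1 was the most abundant, at 33.5 FPKM in KD cells and 30.3 FPKM in NT cells, and Rps6kb1, the main S6 kinase, had 20.6 FPKM in KD cells and 22.3 FPKM in NT cells. Of the 3 rows with pseudogene symbols, Rps15a-ps6 had 49.4 FPKM in KD cells and 48.9 FPKM in NT cells, Rpl14-ps1 had 50.7 FPKM in KD cells and 59.7 FPKM in NT cells, and Rpl31-ps12 had 7.89 FPKM in KD cells and 11.2 FPKM in NT cells. None was called, and reads of such rows may come from the genes they copy.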
